A study of Mus musculus with 4 samples.

Results

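Enzymes that cut the extracellular matrix, and the inhibitors that hold them in check, were followed in mouse liver RNA. The set has 10 genes out of the 27179 counted, taken by name and matched through their Entrez identifiers. It holds the matrix metalloproteinases Mmp2 (Entrez gene 17390), Mmp9 (17395), Mmp11 (17385), Mmp14 (17387) and Mmp15 (17388), the tissue inhibitors of metalloproteinases Timp1 (21857), Timp2 (21858) and Timp3 (21859), and the serine proteases Htra1 (56213) and Plau (18792). The comparison is between 2 groups of liver RNA with 2 libraries each. Fasted mice had been without food overnight and had water, and non-fasted mice (unfasted in the sample titles) had food and water throughout. Both groups are labelled wild type, C57BL/6 (C57BL/6J in the treatment notes) and male, with age described only as matched. No mutation, drug or transgene is named for either group. All 10 genes were lower in fasted livers, by log2 fold changes from -7.01 for Htra1 to -2.16 for Mmp15, where 45.0% of all genes tested were lower and 82.2% changed either way. Mmp11 and Timp1 passed the filter on low counts through the non-fasted libraries only, and 14 trophoblast markers took 5.73% and 5.78% of the counts in those libraries.

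Matrix metalloproteinases are zinc enzymes made as inactive precursors. Most are secreted and are activated outside the cell, whereas the membrane-type enzymes MMP14 and MMP15 and the secreted MMP11 carry a site for furin and can leave the cell active. TIMP proteins bind the active enzymes and block them, and TIMP2 has a further role, since a complex of MMP14 and TIMP2 at the cell surface receives the precursor of MMP2 and activates it. Urokinase, the product of Plau, turns plasminogen into plasmin, which degrades matrix and activates several metalloproteinases. In liver these genes are known mostly from stellate cells, endothelial cells and macrophages and from the turnover of scar tissue, and outside the liver they are used where tissue is remodelled, such as the uterus and placenta in pregnancy.

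RefSeq promoter windows (build GRCm38.p6, whereas the counts were made on GRCm39) were at hand for 7 of the 10 genes, all except Mmp2, Mmp9 and Plau. The 250 bases before the start are shown for 4 of them: Mmp11 and the inhibitor Timp1 among the genes with the larger falls, and Mmp14 and Mmp15 with small ones. The window of Htra1, the gene with the largest fall, is not shown. Capitals mark the GC box GGGCGG, or CCGCCC where it lies on the other strand. The windows are chr10:75932503-75932752 on the minus strand for Mmp11, chrX:20869916-20870165 on the plus strand for Timp1, chr14:54431348-54431597 on the plus strand for Mmp14 and chr8:95352046-95352295 on the plus strand for Mmp15.
Mmp11: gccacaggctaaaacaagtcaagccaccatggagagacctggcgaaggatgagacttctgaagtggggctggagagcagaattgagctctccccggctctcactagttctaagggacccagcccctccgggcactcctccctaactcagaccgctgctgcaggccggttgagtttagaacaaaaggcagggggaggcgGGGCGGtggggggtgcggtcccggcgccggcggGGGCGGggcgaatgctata
Timp1: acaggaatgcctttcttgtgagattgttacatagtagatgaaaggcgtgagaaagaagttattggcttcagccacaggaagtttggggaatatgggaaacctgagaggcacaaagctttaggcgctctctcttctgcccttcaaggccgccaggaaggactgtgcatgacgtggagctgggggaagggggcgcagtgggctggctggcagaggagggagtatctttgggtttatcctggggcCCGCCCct
Mmp14: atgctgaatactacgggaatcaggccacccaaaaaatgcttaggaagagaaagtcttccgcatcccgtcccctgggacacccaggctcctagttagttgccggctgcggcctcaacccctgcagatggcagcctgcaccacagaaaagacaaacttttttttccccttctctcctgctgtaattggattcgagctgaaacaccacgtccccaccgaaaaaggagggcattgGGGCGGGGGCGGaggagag
Mmp15: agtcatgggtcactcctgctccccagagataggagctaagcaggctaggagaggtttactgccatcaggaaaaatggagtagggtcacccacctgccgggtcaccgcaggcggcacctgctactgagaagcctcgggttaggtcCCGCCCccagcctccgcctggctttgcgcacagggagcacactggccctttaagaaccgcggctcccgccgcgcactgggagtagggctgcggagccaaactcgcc

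All 7 windows held at least 1 GC box, against 32.9% of 27025 promoters of the same length, taking the first start listed for each gene and both strands. Mmp11 had 2, at 52 and 19 bases before its start, Mmp14 had 2 side by side at 19 and 13 bases, Timp1 had its match at 8 bases and Mmp15 at 106 bases. GC content was 63.2% for Mmp11, 54.4% for Timp1, 55.2% for Mmp14 and 63.6% for Mmp15, and the median over all promoters was 52.0%. The letters TGANTCA, bound by AP-1 factors, and TATAAA were in 0 of the 7 windows, against 6.87% and 13.0% of all promoters. CCAAT was in 4 windows (34.5% of all) and AGGAAG, an ETS-type motif, in 3 (29.2% of all). In Mmp14 the CCAAT match nearest the start shared a letter with a GC box. GC boxes were present in the genes with large falls and in those with small ones.

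The fasted libraries held 13541405 and 13528015 gene counts, and the non-fasted ones 36975921 and 36943535. Per gene, the mean squared deviation between the 2 libraries of a group was 1.11 in the fasted and 1.13 in the non-fasted libraries, where sampling of reads alone gives 1. Which mouse gave which library is not stated in the sources used here, and p-values measure just the spread between libraries, which may be technical. Grouping rests on the titles of the samples, since the treatment field reads fasted in each of the 4. The trophoblast markers, genes of the placenta, had 6 and 5 counts with fasting and 2117360 and 2135553 without. Xist, transcribed from the inactive X of female cells, had 2 and 1 counts with fasting and 25772 and 26316 without, which goes against the male label. Every fasted to non-fasted difference below is a difference between libraries that also differ in this way. In bulk RNA, fewer cells of a type and less RNA per cell cannot be told apart.

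Over all genes, 5756 of the 15470 tested (37.2%) were higher in fasted livers and 6965 (45.0%) were lower, at a Benjamini-Hochberg adjusted p of 0.05 in edgeR's quasi-likelihood test after scaling by median of ratios. In total 82.2% of genes were called changed. Scaling by total counts gave 3551 higher and 9694 lower, and scaling to 14 hepatocyte markers gave 666 and 14027. Against these shares, 10 of the 10 proteases and inhibitors were tested and 10 were lower. Their libraries did not overlap between groups in any of the 10 genes, as in 50.2% of all genes on the lower side and 41.7% on the higher side. A fall of more than 2-fold passed the test for all 10, against 25.8% of all genes. A log2 fold change of -3 or below was reached by 7 of the 10, all but Mmp14, Mmp9 and Mmp15, and by 14.9% of all genes. As Mmp11 and Timp1 passed the filter through the non-fasted libraries only, they had to come out lower. The other 8 passed it through the fasted libraries as well, at a median of -3.52, and of the 12777 genes that did so 36.4% were lower. Together the 10 genes took 94.5 and 95.3 CPM (counts scaled by library total) in the fasted libraries (Wilson 95% intervals 89.4 to 99.8 and 90.2 to 100.6), against 1474 and 1485 in the non-fasted libraries (1462 to 1487 and 1472 to 1497). These intervals cover counting error only.

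**Figure D1:**
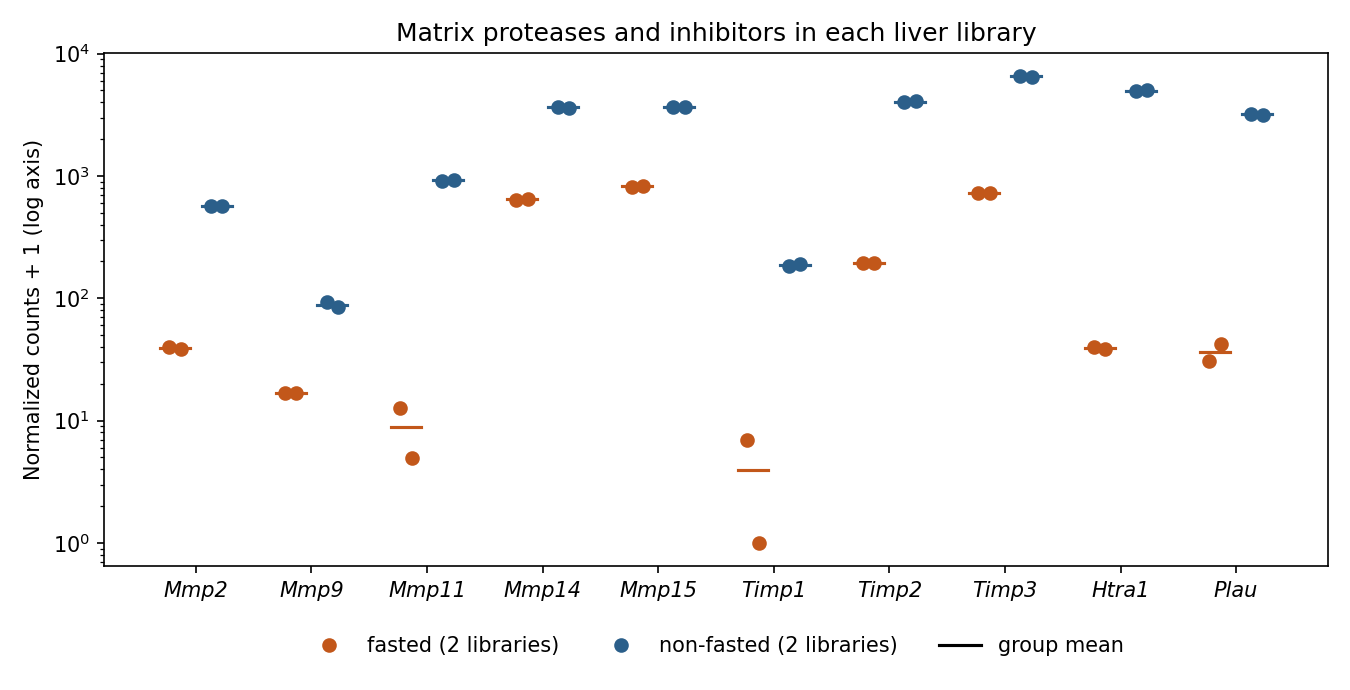
Normalized counts plus 1, on a log axis, of the 10 genes in each of the 2 fasted (orange) and 2 non-fasted (blue) libraries, with a line at each group mean. In every gene both fasted points lie below both non-fasted points, and Timp1 has no count in a fasted library.

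Both gelatinases, which digest denatured collagen and basement membrane collagen, were low in fasted livers. Mmp2 had 20 and 19 counts in the fasted libraries, against 1112 and 1114 in the non-fasted libraries. Mmp9 had 8 and 8 counts in fasted and 181 and 164 in non-fasted libraries, the fewest counts of the 10 genes in the non-fasted group. Normalized counts (raw counts over the library's size factor) averaged 38.4 ± 1.29 in fasted and 565 ± 1.01 in non-fasted livers for Mmp2 (SD, n = 2 each). This was 14.7-fold lower in fasted livers, at a log2 fold change of -3.88 (standard error, SE, 0.23; edgeR adjusted p = 1.5e-09). Mmp9 averaged 15.7 ± 0.0422 normalized counts with fasting and 87.6 ± 6.06 without, at a log2 fold change of -2.47 (SE 0.37, edgeR adjusted p = 2.5e-05). Its counts in the fasted libraries are few, and the counting interval of the log2 ratio runs from -3.30 to -1.76.

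Mmp11 had the largest log2 fold change of the 5 metalloproteinases. This gene encodes stromelysin-3, an enzyme of remodelling stroma. It had 6 and 2 counts in the fasted libraries and 1777 and 1836 in the non-fasted libraries, with means of 7.87 ± 5.55 normalized counts with fasting and 918 ± 21.7 without (SD, n = 2 each). The level was 116.6-fold lower in fasted livers, with a log2 fold change of -6.85 (SE 0.51, edgeR adjusted p = 5.8e-10) and a counting interval from -8.08 to -5.89. Without fasted library 1 it was -7.80 and without fasted library 2 it was -6.24. The gene shares 155 of its 2778 exon bases with Chchd10 on the other strand, and the sources used here do not state whether counting used strand, so reads there cannot be assigned to either. Chchd10 had 2780 and 2744 counts in fasted and 2869 and 2882 in non-fasted libraries, so that its counts did not follow those of Mmp11.

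The membrane-type enzymes were the most abundant metalloproteinases of the set and, with Mmp9, had the smallest falls. Mmp14 had 322 and 330 counts in the fasted libraries, against 7164 and 7133 in the non-fasted libraries. Mmp15, which like MMP14 cuts matrix at the cell surface, had 415 and 423 counts in fasted and 7233 and 7253 in non-fasted libraries. The counts of both genes were close within each group and far apart between groups. Mmp14 averaged 642 ± 12.9 normalized counts with fasting and 3632 ± 9.29 without, at a log2 fold change of -2.50 (SE 0.060, edgeR adjusted p = 6.1e-11). Mmp15 averaged 825 ± 13.3 in fasted and 3680 ± 9.05 in non-fasted livers, at a log2 fold change of -2.16 (SE 0.053, edgeR adjusted p = 1.0e-10). As linear values, Mmp14 was 5.66-fold and Mmp15 4.46-fold lower in fasted livers.

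The inhibitors fell as well. Timp3, whose protein stays bound to the matrix and also inhibits ADAM proteases, had the most counts. These were 371 and 369 in fasted and 12845 and 12763 in non-fasted libraries, not corrected for its greater length. Timp2 had 99 and 98 counts in fasted and 7853 and 8092 in non-fasted libraries. Timp1, the secreted inhibitor that rises in injured liver, had 3 and 0 counts in fasted and 358 and 376 in non-fasted libraries. Timp1 was thus at the limit of detection in fasted livers, while Timp3 and Timp2 were well measured there. The log2 fold change was -3.16 for Timp3 (SE 0.056, adjusted p = 1.4e-11), -4.38 for Timp2 (SE 0.10, adjusted p = 3.1e-11) and -5.93 for Timp1 (SE 0.92, adjusted p = 7.2e-07), all from edgeR. For Timp1 the counting interval of the log2 ratio runs from -8.26 to -4.43, and without fasted library 1, which holds its 3 counts, the fitted value was -11.1, which depends on the prior count of the fit.

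Timp1 and Timp3 lie inside genes of the synapsin family on the other strand, Timp1 in Syn1 and Timp3 in Syn3. Timp3 shares 1733 of its 8144 exon bases with Syn3, and Timp1 shares 0 of 888 with Syn1. As with Mmp11, reads in the shared bases cannot be assigned to either gene. Levels of Timp3 per kilobase, and its place among the other genes, rest on all 8144 bases. Syn3 had 47 and 42 counts in fasted and 115 and 86 in non-fasted libraries, far fewer than Timp3. Timp3 had 7.89 and 8.79 times the counts of Syn3 in the fasted libraries and 112 and 148 times in the non-fasted libraries. Syn1 had 4 and 0 counts in fasted and 21 and 21 in non-fasted libraries.

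Both serine proteases of the set were nearly absent from fasted livers. Htra1, a secreted protease that cuts fibronectin and other matrix proteins, had 20 and 19 counts in fasted and 9678 and 9891 in non-fasted libraries. Plau had 15 and 21 counts in fasted and 6306 and 6222 in non-fasted libraries. Normalized counts of Htra1 averaged 38.4 ± 1.29 in fasted and 4971 ± 79.0 in non-fasted livers (SD, n = 2 each), 129.5-fold lower in fasted livers (log2 fold change -7.01, SE 0.23, edgeR adjusted p = 1.1e-11). Plau averaged 35.4 ± 8.45 in fasted and 3183 ± 28.6 in non-fasted livers, 89.8-fold lower (log2 fold change -6.49, SE 0.24, adjusted p = 1.7e-11). Both genes are outside the range of the metalloproteinases other than Mmp11.

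**Figure D2:**
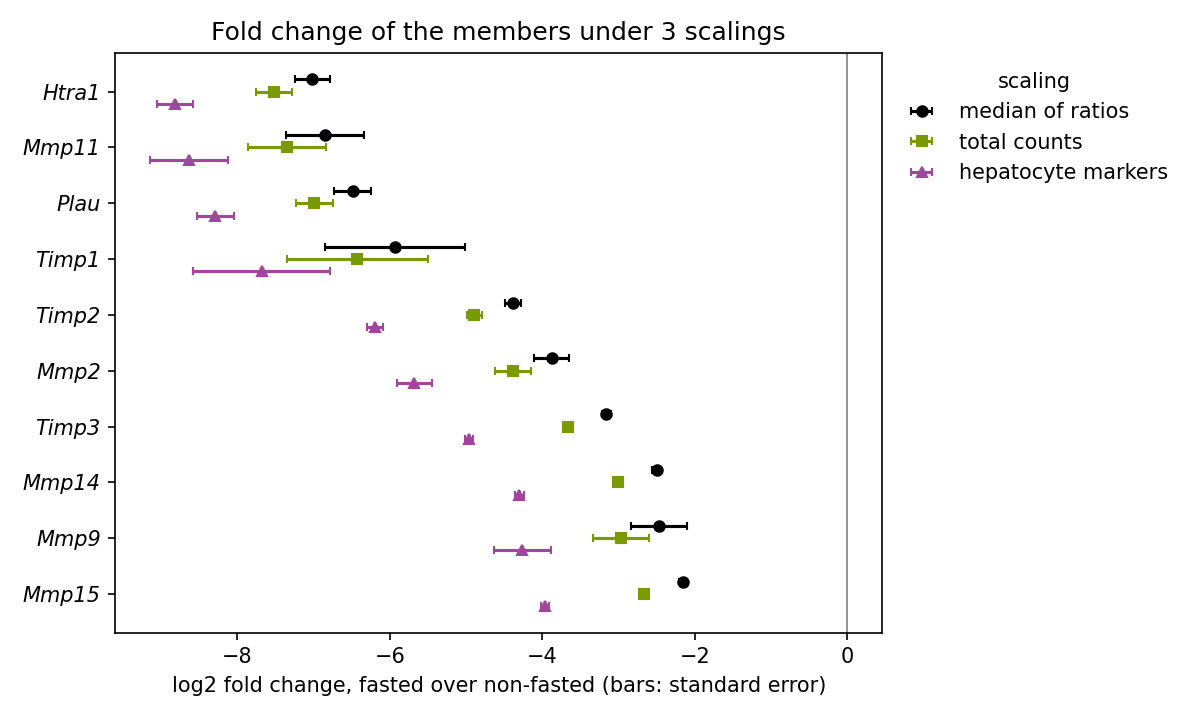
Fasted over non-fasted log2 fold change of the 10 genes under scaling by median of ratios (black), total counts (green) and hepatocyte markers (purple), with standard errors. All points lie left of 0, and the ranges are -7.01 to -2.16 (median of ratios), -7.52 to -2.66 (total counts) and -8.81 to -3.96 (hepatocyte markers).

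Ordered by log2 fold change the genes ran Htra1, Mmp11, Plau, Timp1, Timp2, Mmp2, Timp3, Mmp14, Mmp9 and Mmp15. Neighbours in this order mostly did not differ beyond 2 standard errors of their difference. Exceptions were Mmp2 and Timp3, which differed by 0.72 (SE 0.24), and Timp3 and Mmp14, which differed by 0.66 (SE 0.081). Timp2 and Mmp2 lay close to that limit, at a difference of 0.51 (SE 0.26). The median over the 10 genes was -4.13 and the median over all genes tested was -0.13. With total counts the median of all genes moved by -0.50 and with hepatocyte markers by -1.80, and the median of the 10 genes was then -4.63 and -5.93. With upper quartile scaling it moved by 0.12.

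**Figure D3:**
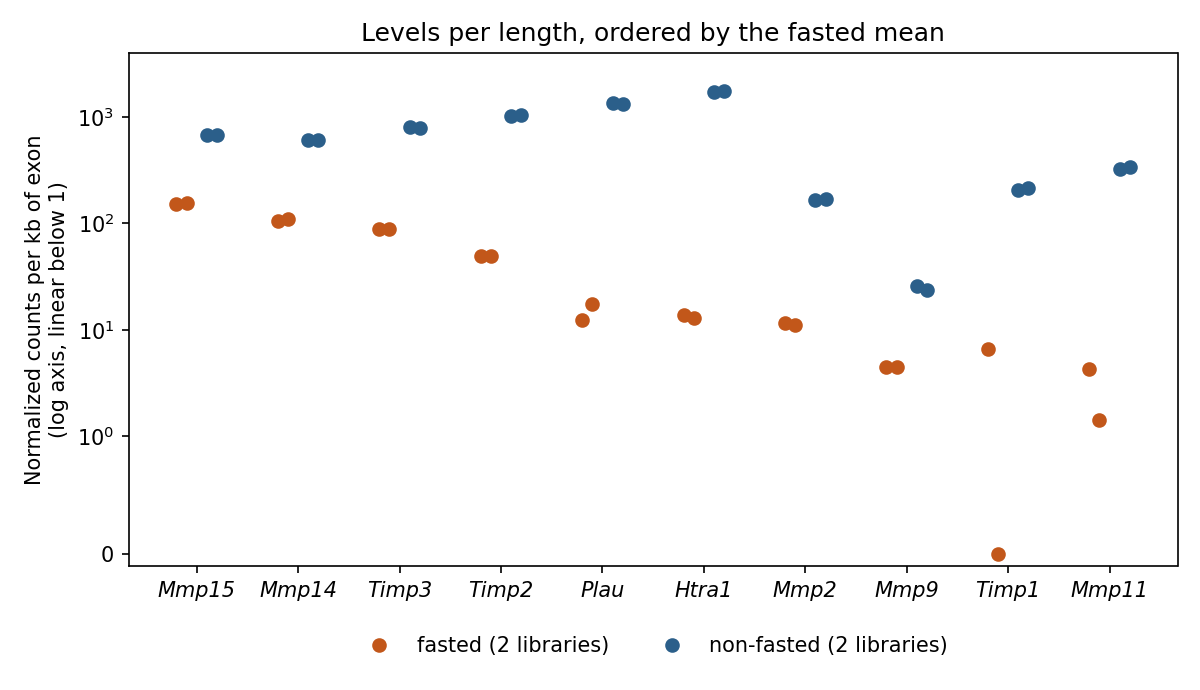
Normalized counts per kilobase of exon, on a log axis that is linear below 1, in each of the 2 fasted (orange) and 2 non-fasted (blue) libraries, with genes ordered by the fasted mean. Mmp15 is highest in fasted livers at 153 and Htra1 is highest in non-fasted livers at 1727.

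Levels between genes were compared as normalized counts per kilobase of exon, with exon lengths from GENCODE vM21. In fasted livers the order was Mmp15 at 153 ± 2.47, Mmp14 at 108 ± 2.16, Timp3 at 89.4 ± 0.102 and Timp2 at 49.8 ± 0.224 per kilobase (SD, n = 2), each apart from the next by more than the SD. Plau at 15.0 ± 3.57, Htra1 at 13.3 ± 0.448 and Mmp2 at 11.4 ± 0.382 followed, and Htra1 was not separated from Plau by more than its spread. Mmp9 at 4.45 ± 0.0119, Timp1 at 3.32 ± 4.69 and Mmp11 at 2.83 ± 2.00 were lowest and overlapped. In non-fasted livers Htra1 was first at 1727 ± 27.5 per kilobase, then Plau at 1345 ± 12.1, Timp2 at 1040 ± 22.6, Timp3 at 799 ± 3.21, Mmp15 at 682 ± 1.68, Mmp14 at 609 ± 1.56, Mmp11 at 330 ± 7.80, Timp1 at 210 ± 7.39, Mmp2 at 168 ± 0.298 and Mmp9 at 24.8 ± 1.71. All neighbours in the non-fasted order were apart by more than their SDs. The membrane-type enzymes thus led in fasted livers and the serine proteases in non-fasted livers.

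Ratios within a library do not depend on the scaling between libraries. The summed level per kilobase of the 3 inhibitors was 0.526 and 0.495 of that of the 5 metalloproteinases in the fasted libraries and 1.12 and 1.14 in the non-fasted libraries. The complex that activates MMP2 is made of proteins, which were not measured. In RNA, Timp2 per kilobase was at 0.470 and 0.454 of Mmp14 in fasted and at 1.68 and 1.74 in non-fasted libraries. These comparisons hold for the genes named: over all 23 metalloproteinase genes of the set and the lists, a choice made after the data were seen, the summed level of the 3 inhibitors was 0.184 and 0.173 of the enzymes in fasted and 0.813 and 0.823 in non-fasted libraries. Mmp2 was at 0.110 and 0.102 of the level of Mmp14 in fasted libraries and at 0.274 and 0.276 in non-fasted libraries. Timp2 was at 0.558 and 0.555 of Timp3 in fasted and at 1.28 and 1.33 in non-fasted libraries. Of the 5 ratios, that of Mmp15 to Mmp14 varied least, at 1.42 and 1.42 in fasted and 1.11 and 1.12 in non-fasted libraries. In none of these ratios did the groups overlap, and with 2 libraries a group they were not tested.

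Of 91 further genes of matrix turnover, in 8 lists, 78 were tested, of which 52 were lower and 19 higher in fasted livers and 7 did not pass. Hepatocyte-marker scaling gave 73 lower and 3 higher, where 14027 of all 15470 genes tested were lower and 666 higher. Of the 78 tested, 24 passed the filter through the non-fasted libraries only, and of the other 54, 31 (57.4%) were lower and 19 higher. Of all genes that passed it through the fasted libraries 36.4% were lower. The counts of each list below stand beside 45.0% lower and 37.2% higher over all genes tested. Counts given under hepatocyte-marker scaling stand instead beside its 14027 lower and 666 higher genes, so mostly lower lists are usual there. Among 18 other metalloproteinases 10 were tested, and 7 were lower and 1 was higher. Their median log2 fold change was -3.72, or -3.04 with genes at 0 fasted counts set to their bound. Of those tested, only Mmp19 and Mmp23 passed the filter through the fasted libraries as well. The others could only be called lower, so the count and median of this list are largely fixed by the filter. Mmp23, named after its values were seen, had 6 and 14 counts in fasted and 870 and 868 in non-fasted libraries, at -4.48. Mmp19, a secreted metalloproteinase, had 897 and 904 counts in fasted and 1435 and 1369 in non-fasted libraries. It was the metalloproteinase that went the other way, at 1.31 (SE 0.046, edgeR adjusted p = 3.1e-09), but was at -0.49 under hepatocyte-marker scaling. Per kilobase Mmp19 had 1.80 and 1.80 times the summed level of the 5 metalloproteinases of the set in fasted libraries and 0.114 and 0.108 times in non-fasted libraries. Mmp28 had 2 and 2 counts in fasted and 1013 and 1070 in non-fasted libraries, at -7.03 (SE 0.72).

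Other inhibitors went both ways. Of 7, 3 were higher and 4 lower in fasted livers, a split near that of all genes (37.2% higher and 45.0% lower). Under hepatocyte-marker scaling 1 was higher and 6 lower. A2m and Timp4 passed the filter through the non-fasted libraries only and could only be called lower. A2m, a broad protease trap, had 0 and 2 counts in fasted and 25659 and 25866 in non-fasted libraries. Its relatives Mug1 and Pzp, plasma proteins made by hepatocytes, were at 1.97 and 1.57, and under hepatocyte-marker scaling at 0.16 and -0.23. Mug1 has close paralogs that may share its reads.

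Around urokinase, 6 of 13 tested genes of plasminogen activation were higher and 7 lower in fasted livers. This split is near that of all genes, at 37.2% higher and 45.0% lower. Under hepatocyte-marker scaling 2 of the 13 were higher and 11 lower. Higher were plasma proteins such as Klkb1, the precursor of plasma kallikrein, at 1.97, and Plg, which encodes plasminogen, the substrate of urokinase, at 1.57. Plg had 31885 and 31933 counts in fasted and 41909 and 41644 in non-fasted libraries, and under hepatocyte-marker scaling it was at -0.24. The urokinase receptor Plaur and the tissue-type activator Plat were named after their values were seen. Plaur had 7 and 2 counts in fasted and 2172 and 2217 in non-fasted libraries, and Plat had 6 and 4 in fasted and 253 and 279 in non-fasted libraries. Plaur and Plat passed the filter through the non-fasted libraries only and could only be called lower. In these counts substrate RNA was present in both groups, and RNA of both activators and of the receptor was near 0 in fasted livers. A contrast between substrate and activators was not tested.

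The 3 other HtrA proteases were lower in fasted livers, with a median of -1.55 and very unlike sizes. Htra2 and Htra4 were named after their values were seen. Htra2 was at -0.34 (SE 0.089), and Htra4 had 2 and 2 counts in fasted and 27 and 19 in non-fasted libraries. The median of the list is the value of Htra4. That gene passed the filter through the non-fasted libraries only, so it could only be called lower. Htra3 had 15 and 16 counts in fasted and 31018 and 30822 in non-fasted libraries, at -9.00 (SE 0.26). Htra3 was at 0.486 and 0.546 of the level of Htra1 per kilobase in fasted libraries and at 2.08 and 2.02 in non-fasted libraries.

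Of 8 ADAM proteases tested, 6 were lower and 2 higher, with a median of -3.33. Adam8 and Adam12, among the lower ones, passed the filter through the non-fasted libraries only and could only be called lower. Adam19 fell by 7.79 on the log2 scale, and Adam9 was at 0.37, which turned to -0.13 when scaled by total counts and to -1.43 under hepatocyte-marker scaling. Of 16 ADAMTS proteases tested, 11 were lower, 1 was higher and 4 did not pass, with a median of -2.94, or -2.46 with bounds. Hepatocyte-marker scaling gave 15 lower and 0 higher. Of the lower ones, Adamts1, Adamts2, Adamts5, Adamts7 and Adamts15 passed the filter through the fasted libraries as well. The other lower ones, Adamts4 among them, passed it through the non-fasted libraries only and could only be called lower. The aggrecanase Adamts4 had 3 and 3 counts in fasted and 2689 and 2659 in non-fasted libraries, and the procollagen protease Adamts2 had 19 and 25 in fasted and 5165 and 5115 in non-fasted libraries.

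Of 5 activators and inducers of the proteases, 3 were higher and 2 lower, whereas 5 were lower under hepatocyte-marker scaling. The convertase Pcsk5 was at 1.41, or -0.39 under hepatocyte-marker scaling, and basigin (Bsg), which induces metalloproteinases, was at -0.63. Of 16 matrix substrates and binding partners, 12 were lower and 3 higher, with a median of -3.25, and hepatocyte-marker scaling gave 16 lower and 0 higher, with a median of -5.06. Fibronectin (Fn1) had 21162 and 20842 counts in fasted and 239129 and 239068 in non-fasted libraries, at -1.56 (SE 0.016). Thbs2, a matrix protein that takes part in clearing MMP2, was at -6.43, and the plasma protein vitronectin (Vtn) was at 1.65, or -0.16 under hepatocyte-marker scaling.

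**Figure D4:**
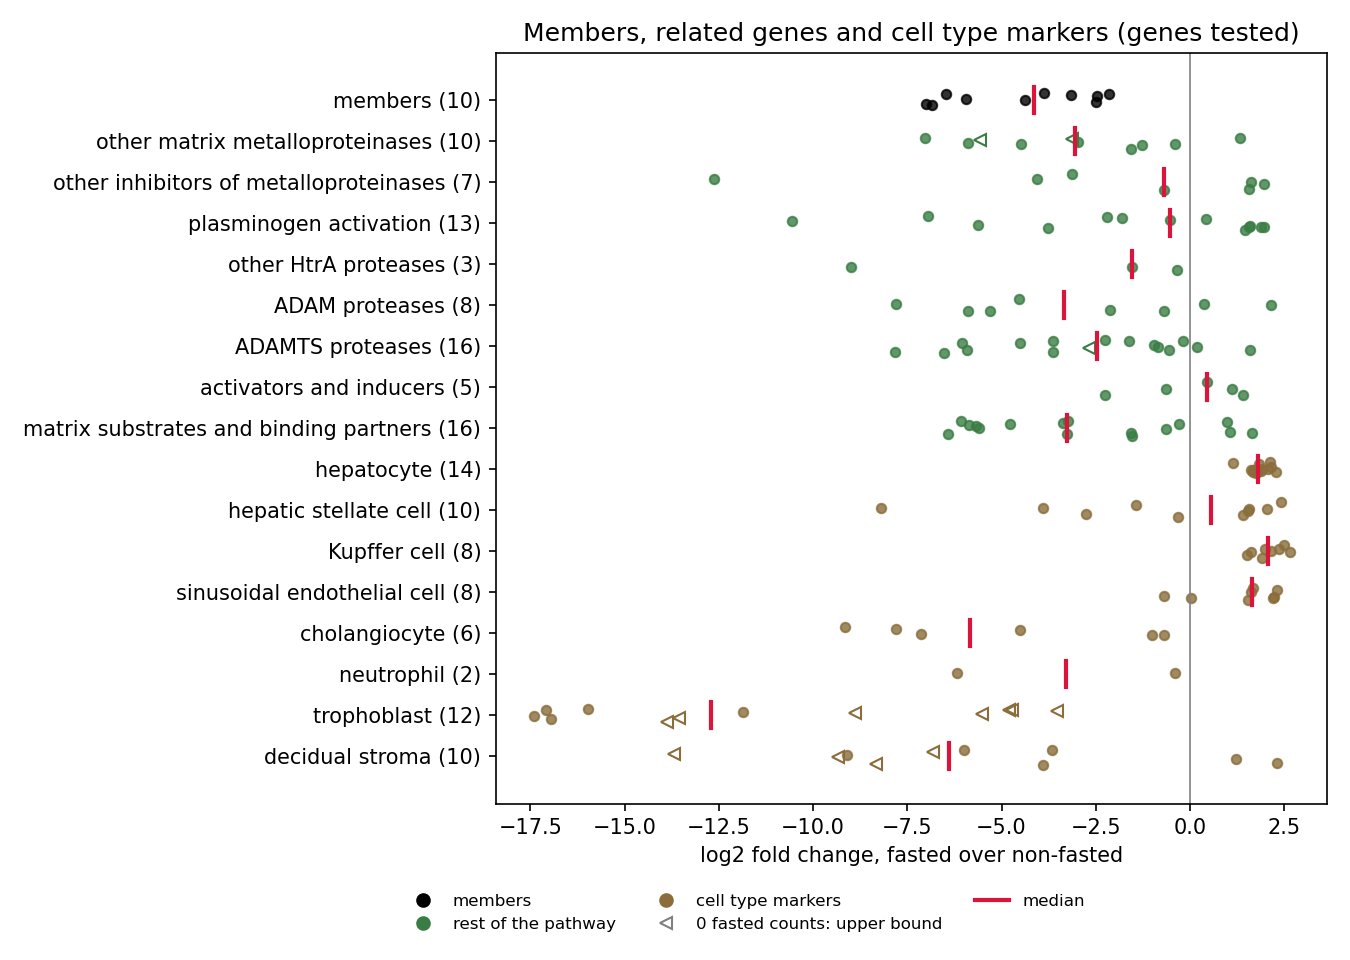
Fasted over non-fasted log2 fold change of the genes tested in each list, with the number tested in brackets, medians in red and open triangles for genes with no fasted count, drawn at their upper bound. The 10 proteases and inhibitors lie between -7.01 and -2.16, hepatocyte and Kupffer cell markers lie right of 0 under median-of-ratios scaling, and trophoblast markers lie far left of 0.

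Cell type markers were higher for some cell types and lower for others. Hepatocyte markers were abundant in both groups, with normalized sums of 3674880 to 3690690 in fasted and 1056550 to 1063630 in non-fasted livers. All 14 hepatocyte markers and all 8 Kupffer cell markers were higher in fasted livers, with medians of 1.80 and 2.06, and 6 of 8 sinusoidal endothelial markers were higher and 1 lower. Hepatocyte-marker scaling left 5 Kupffer cell and 3 sinusoidal endothelial markers higher and put 2 and 3 lower. The summed Kupffer markers ranged from 9528 to 9722 normalized counts in fasted and from 2301 to 2356 in non-fasted livers. All 6 cholangiocyte markers were lower, 2 of them tested through the non-fasted libraries only, with sums of 976 to 1133 in fasted and 8834 in both non-fasted libraries. Of 10 stellate cell markers 5 were higher, among them Lrat and Reln, and 5 were lower, among them Des, with sums of 4326 to 4467 in fasted and 24489 to 24640 in non-fasted livers (2 higher and 7 lower under hepatocyte-marker scaling). Des carried most of that gap, and without it the sums were 4273 to 4393 in fasted and 5622 to 5706 in non-fasted livers. Of 8 neutrophil markers 2 were tested, of which S100a8 was lower and S100a9, at -0.39, did not pass. Ly6g, Camp, Ngp and Mpo were at 0 in fasted libraries and at 7 counts or fewer in non-fasted libraries. Elane had 2 and 5 counts in fasted and 2 and 1 in non-fasted libraries, and Retnlg 4 and 2 in fasted and 8 and 7 in non-fasted libraries.

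Markers of the pregnant uterus and placenta were lower in fasted livers, as the proteases were. Of 14 trophoblast markers 12 were tested and 12 were lower, all of which passed the filter through the non-fasted libraries only and so had to come out lower. Their summed normalized counts were 9.86 to 11.8 in fasted and 1075410 to 1085430 in non-fasted livers, 9 of the 14 had no count in either fasted library, and Synb had none in any library. Of 10 markers of decidual stroma, the uterine tissue around the embryo, 8 were lower, 4 of them tested through the non-fasted libraries only. The 2 higher ones were Fkbp5 and Bmp2. Bmp2 is also counted among the sinusoidal endothelial markers, and Hand2, which was lower, among the stellate cell markers. The 10 decidual markers summed to 1648 to 1652 normalized counts in fasted and 76497 to 77492 in non-fasted livers. Among them Prl8a2, Prl3c1, Hoxa10 and Hoxa11 were at 0 in fasted libraries. The part of these cells, and of the cholangiocyte and stellate cell markers, in the falls of the 10 genes was not tested.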

How the data were processed

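Bulk RNA sequencing of mouse liver gave 4 libraries, 2 fasted and 2 non-fasted, grouped by sample title. The deposited files hold raw counts per gene by Entrez identifier, without normalization. The authors' processing notes name Trimmomatic, STAR, featureCounts, FastQC, MultiQC, DESeq2 1.32.0 and the build GRCm39. The sources used here do not state strand setting or multi-mapping. Symbols came from RefSeq (GRCm38.p6), which left 1904 of 27179 identifiers unnamed.

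Software was edgeR 4.0.16, DESeq2 1.42.0 and limma 3.58.1 in R 4.3.3, and matplotlib 3.10.9 in Python 3.11.15. Genes passing filterByExpr entered edgeR's two-sided quasi-likelihood test with median-of-ratios size factors, and p-values were adjusted over all of them after Benjamini and Hochberg, at 0.05. SEs are Wald errors with the negative binomial deviance computed exactly, since edgeR's own is inexact for abundant genes. The common biological coefficient of variation was 0.00988. Counting intervals are exact binomial (Clopper-Pearson) intervals of group sums and Wilson intervals of shares, at 95%. A group at 0 was set to 3 counts for bounds. The test was tested on simulated data.

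The genes and lists were chosen with earlier results of these data known. All 10 genes are named. From each other list come the largest rise and fall past the test with a mean of at least 100 normalized counts, and the highest mean count. A gene named by this rule is not reported here. Syn1 and Syn3 are named as the genes around Timp1 and Timp3. Exon lengths are those of GENCODE vM21 and promoter windows those of RefSeq, both on GRCm38, and no coordinate was converted. Alternatives are other scalings, filters, tests and dispersions, a minimum fold of 2, thinning, a replicate block and leaving out each library.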

Additional observations from a re-analysis of the deposited data

How the results depend on the processing

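All 10 genes remained lower and past the threshold under each of the 18 alternatives. Their median log2 fold change was -4.01 with upper quartile scaling, -4.63 with total counts, -5.93 with hepatocyte-marker scaling, -4.16 without a filter, -4.12 with at least 10 counts in every library of a group, -4.11 by limma-voom and -4.15 thinned to equal totals. Leaving out each library gave medians from -4.16 to -4.08. Of all genes, 3551 were higher with total counts, 2273 higher and 3990 lower with a minimum fold of 2, 3714 higher at a fixed coefficient of variation of 0.2, 1648 higher and 3691 lower at 0.4, and 666 higher and 14027 lower with hepatocyte-marker scaling. Of the related genes, 3 were higher with hepatocyte-marker scaling and 11 at a coefficient of variation of 0.4, against 19. Signs turned with hepatocyte-marker scaling for Mmp19 (-0.49), Pzp (-0.23), Plg (-0.24), Adam9 (-1.43), Pcsk5 (-0.39), Vtn (-0.16) and Adamts13 (-0.21), and with total counts for Adam9 (-0.13). The size factors account for these shifts by construction. Adam9 and Bsg lost their calls with a minimum fold of 2 and at coefficients of variation of 0.2 and 0.4, and Mmp19 and Pcsk5 at 0.4. With a replicate block 10 of the 10 genes were lower, and 5743 genes were higher and 6929 lower over all. Libraries with the same replicate number did not deviate together (correlation -0.0053 across 15470 genes). Most of the deviation within each group was of the size that read sampling gives, which is independent between libraries. The correlation therefore cannot tell whether libraries with the same number were paired. Depth limits Timp1, Mmp11 and Mmp9 in fasted livers, at 3, 8 and 16 counts per group.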

Other observations

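Several low-count metalloproteinases, named after their values were seen, had 2 counts or fewer in each fasted library. Mmp10, a stromelysin, had 0 and 0 counts in fasted and 261 and 294 in non-fasted libraries, a log2 fold change of -5.58 or below with the fasted group at its floor of 3 counts. Mmp1a, an interstitial collagenase with a close paralog that may share its reads, had 0 and 0 counts in fasted and 62 and 39 in non-fasted libraries. The macrophage elastase Mmp12 had 2 and 2 counts in fasted and 430 and 518 in non-fasted libraries, while the Kupffer cell markers were higher in fasted livers. On the other side, Adamts13, which trims von Willebrand factor and is made by stellate cells, had 45 and 39 counts in fasted and 60 and 48 in non-fasted libraries, at a log2 fold change of 1.59 (SE 0.21, edgeR adjusted p = 0.000123). Under hepatocyte-marker scaling it was at -0.21 (edgeR adjusted p = 0.351), and under the other alternatives it was from 1.08 to 1.74, with adjusted p up to 0.0338.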
